A study of Homo sapiens with 30 samples.

Results

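AP-1 is a family of transcription factors built as dimers of FOS proteins (FOS, FOSB, FOSL1 and FOSL2) with JUN proteins (JUN, JUNB and JUND). These 7 human genes were followed in A375, an established line of human melanoma cells that carries an activated BRAF kinase. On Affymetrix HG-U133 Plus 2.0 arrays, 17 of the 54613 probe sets tested carried exactly 1 of these symbols, and all 17 are described here: 1 each for FOS, FOSB, FOSL1 and JUNB, 5 for FOSL2, 4 for JUN and 4 for JUND. Probe sets were taken by gene symbol and not by their values, although the family was chosen with earlier results of these data known. The 10 groups were 650 nM MLN4924 for 1, 2, 4, 8 or 24 h and 0.065% DMSO, the control, for the same 5 times, with 3 arrays in each and 30 in all. The vehicle of the MLN4924 cells is not stated, and no arrays of cells before the addition were analysed here, so each arm was set against its own 1 h arrays. Nothing in the labels says that the 3 samples of a group came from separate cultures, so p-values reflect the spread among them, which may be technical. In bulk RNA, fewer cells expressing a gene and less RNA per cell cannot be told apart.

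All 7 proteins carry a basic region that binds DNA and a leucine zipper that holds the dimer. FOS proteins pair with JUN proteins and not with each other, whereas JUN proteins also pair among themselves and with ATF proteins. FOS, FOSB, JUN and JUNB are classical immediate early genes, switched on within minutes of a growth factor or stress signal through the ERK, JNK and p38 kinases, and their mRNAs are short-lived. FOSL1 (also called FRA1) and FOSL2 (FRA2) are slower targets of sustained ERK signalling and are known for their part in melanoma cell state, and JUND is the member found in most resting cells. MLN4924 (pevonedistat) inhibits the NEDD8-activating enzyme, which cullin-RING ubiquitin ligases need, and JUN protein is a known substrate of such ligases, among them those with FBXW7 or COP1. The arrays measured mRNA and not protein.

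Promoters are shown to describe which AP-1 and cyclic AMP type elements these genes hold. Whether these elements bear on the response to the drug was not tested. Each line gives the 250 bases before the RefSeq transcription start in GRCh38.p14, 5′ to 3′ on the gene's strand, with letters that match a searched motif in capitals. The windows are FOS at chr14:75278578-75278827 (plus strand), FOSB at chr19:45467746-45467995 (plus), FOSL2 at chr2:28392608-28392857 (plus), JUN at chr1:58784048-58784297 (minus) and JUND at chr19:18281623-18281872 (minus).
FOS: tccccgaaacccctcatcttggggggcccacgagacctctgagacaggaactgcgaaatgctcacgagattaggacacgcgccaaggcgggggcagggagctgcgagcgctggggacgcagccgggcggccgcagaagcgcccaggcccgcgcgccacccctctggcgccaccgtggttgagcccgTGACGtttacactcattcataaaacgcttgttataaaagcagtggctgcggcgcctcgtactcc
FOSB: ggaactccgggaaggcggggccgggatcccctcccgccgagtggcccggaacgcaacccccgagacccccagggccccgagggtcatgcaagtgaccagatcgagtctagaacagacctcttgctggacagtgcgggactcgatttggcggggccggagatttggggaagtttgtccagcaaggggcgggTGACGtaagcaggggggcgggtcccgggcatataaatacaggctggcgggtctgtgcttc
FOSL2: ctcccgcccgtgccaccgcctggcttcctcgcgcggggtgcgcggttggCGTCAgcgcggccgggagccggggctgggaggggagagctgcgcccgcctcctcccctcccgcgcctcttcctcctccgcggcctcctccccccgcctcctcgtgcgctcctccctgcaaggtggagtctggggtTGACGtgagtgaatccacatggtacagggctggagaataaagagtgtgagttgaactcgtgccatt
JUN: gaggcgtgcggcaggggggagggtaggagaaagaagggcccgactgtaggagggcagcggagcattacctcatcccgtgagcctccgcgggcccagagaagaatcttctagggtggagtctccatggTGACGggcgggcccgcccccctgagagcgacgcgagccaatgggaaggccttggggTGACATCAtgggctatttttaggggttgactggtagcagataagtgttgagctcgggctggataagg
JUND: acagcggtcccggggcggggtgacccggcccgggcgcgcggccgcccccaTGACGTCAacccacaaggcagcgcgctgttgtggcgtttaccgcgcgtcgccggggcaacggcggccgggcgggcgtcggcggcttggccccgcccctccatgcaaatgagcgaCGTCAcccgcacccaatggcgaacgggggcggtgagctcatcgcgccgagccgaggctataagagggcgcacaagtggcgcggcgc

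Sequences of 6 of the 7 genes were found. The search covered both strands of the 300 bases from 250 before to 50 after the start, and positions are counted from the start. TGACG, the first 5 bases of the cyclic AMP response element, occurred in the windows of 6 of 6 genes, against 24.6% of 35116 promoter windows of the same length. It lay at -64 to -60 in FOS, at -60 to -56 in FOSB and at -137 to -133 in JUNB. The full element TGACGTCA, which contains TGACG on both strands, was found in JUND at -200 to -193, and 1.85% of all windows held it. The variant TGACATCA, known from the JUN promoter as a site of JUN and ATF2 dimers, lay in JUN at -67 to -60, against 2.61% of all windows. The AP-1 element TGACTCA itself was found only in FOSL2, at 5 to 11 after the start, against 4.95% of all windows. No CArG box, the serum response element core, was found in these 6 windows, and 1.29% of all windows held one. Bases further than 250 before the start were not searched, so a CArG box there would be missed. A match describes letters and not a site in use.

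A value below is the deposited probe set signal after quantile normalization, and its median over all probe sets and arrays was 36.5, which serves as a mark for dim probe sets since no detection calls were used. Changes are log2 differences of signal + 32 with their standard error (SE), fitted with limma over all probe sets. A change was called at a Benjamini-Hochberg adjusted p under 0.05. Adding 32 compresses the changes of dim probe sets. Probe sets of 1 gene share its mRNA and are not replicates, and levels are not compared between probe sets. Within groups, arrays correlated at 0.9833 to 0.9898, and the highest correlation between groups was 0.989, so the 2 ranges overlap. The 3' to 5' signal ratio of ACTB ran from 1.14 to 1.74 over the arrays. DMSO 2 h replicates 1 and 2 had 1.74 and 1.68, and replicate 3 had 1.26.

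The cells carried their melanocyte lineage label in part. SOX10, PAX3 and MITF, the lineage's transcription factors, were above 36.5 on 30 of 30 arrays, and SOX10 ran from 305 to 1130. Of the pigment genes, MLANA and TYRP1 were above it on 0 arrays, PMEL on 3 and TYR on 25, with TYR between 24.7 and 90.1. The markers of other cell types were mixed. COL3A1, CDH1, EPCAM, PTPRC, VWF and TEK were at or below 28.1 on all arrays. DCN, COL1A1, KRT14, KRT8, LYZ, HBB and PECAM1 were above 36.5 on 30 of 30 arrays and LUM on 28, and COL1A1 ran from 84.9 to 225 and LYZ from 65.6 to 391. Of 21 measured markers of fibroblasts, epithelium, blood and endothelium, 2 were called higher and 5 lower with MLN4924 than with DMSO at 24 h, when 32.5% of all 19775 genes were called, 1 lower at 8 h (13.6% of all genes) and 0 at the earlier times. The summed signal of the 7 fibroblast markers was 268 to 309 in MLN4924 arrays and 450 to 502 in DMSO arrays at 24 h. That of the 4 blood markers was 229 to 295 in MLN4924 arrays and 550 to 612 in DMSO arrays, of which LYZ averaged 84.7 in MLN4924 and 362 in DMSO cells and was the 1 marker of the 4 called. The sum of the 5 epithelial and keratinocyte markers was 247 to 278 in MLN4924 arrays and 218 to 250 in DMSO arrays, and that of the 5 endothelial markers 147 to 176 in MLN4924 arrays and 150 to 174 in DMSO arrays. Their part in the AP-1 results was not tested.

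MLN4924 split the family by time. At 4 and 8 h FOS and FOSB were lower in MLN4924 than in DMSO cells and FOSL2 was higher. JUND was called lower at 4 h and higher at 8 h, when JUN 201466_s_at was also called higher. JUN and JUNB, immediate early genes as well, were called lower at neither time. At 24 h JUN, JUND, FOSL1 and FOSL2 were all higher and FOS alone was lower. No member probe set was called at 1 h, when 0.0201% of all probe sets were, or at 2 h, when 0.313% were. At an unadjusted p under 0.05, 3 of 17 passed at 1 h, all of them for JUN, and 5 at 2 h, 3 of them for JUN. Of all 54613 probe sets, 2780 passed that unadjusted threshold at 1 h and 5500 at 2 h. At 4 h 4 of 17 were called (2.05% of all probe sets), 1 higher and 3 lower. At 8 h 6 were called (9.74%), 4 higher and 2 lower, and at 24 h 13 were called (24.8%), 12 higher and 1 lower. The median of the 17 member probe sets at 24 h was 1.23 on the log2 scale, against 0.009 over all probe sets. FOSL2 with 5 probe sets, and JUN and JUND with 4 each, weigh more in the member median than the other genes. Taking 1 probe set per gene, the brightest, 0 of 7 genes were called at 1 h (0.0152% of 19775 genes) and 0 at 2 h (0.455%). At 4 h 4 were called (2.92%), at 8 h 4 (13.6%) and at 24 h 5 (32.5%). At an unadjusted p under 0.05, 1 of the 7 passed at 1 h and 3 at 2 h. How many of all genes passed at that threshold was not counted.

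**Figure D1:**
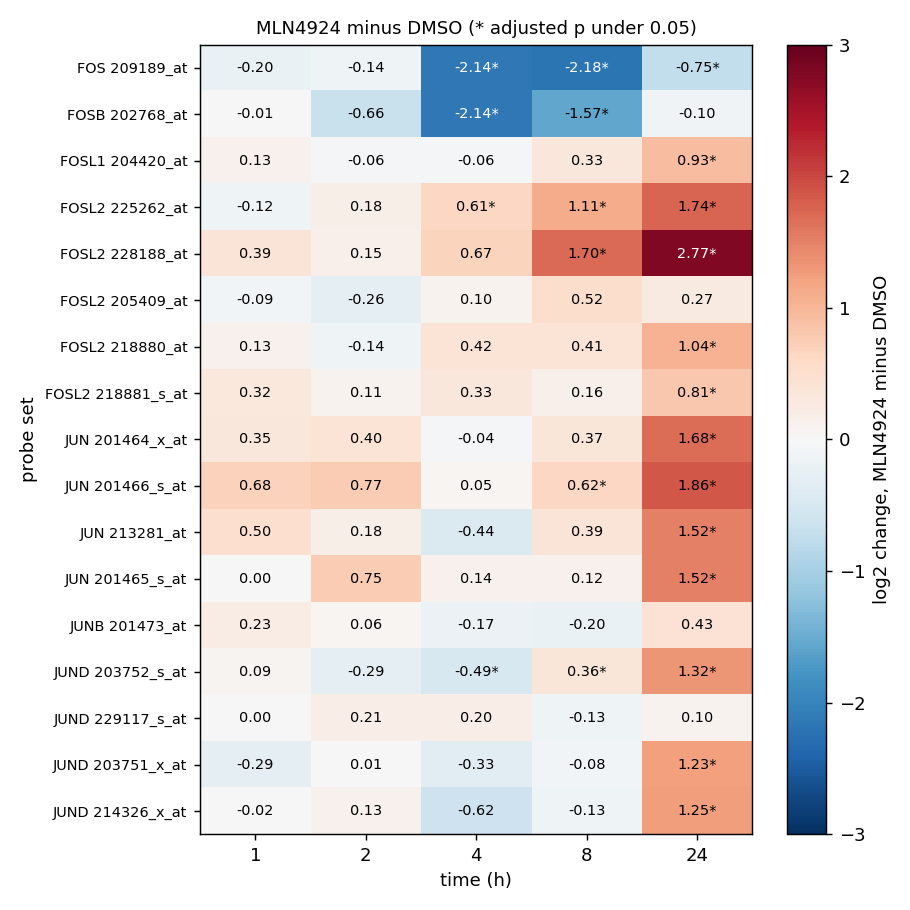
Log2 change of each of the 17 AP-1 probe sets (vertical axis), MLN4924 minus DMSO, at each time in hours (horizontal axis), from the limma fit; colour and number give the change, and an asterisk marks an adjusted p under 0.05. FOS and FOSB are lower at 4 h (-2.14 each), and at 24 h 12 probe sets of FOSL1, FOSL2, JUN and JUND are higher.

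FOS encodes the founding member of the family, a partner of JUN whose mRNA is the usual readout of an immediate early response. In MLN4924 arrays its signal was 297, 365 and 171 at 1 h, 141, 158 and 107 at 2 h, 105, 82.2 and 91.2 at 4 h, 122, 205 and 151 at 8 h, and 244, 195 and 270 at 24 h. In DMSO arrays it was 362, 263 and 313 at 1 h, 171, 150 and 133 at 2 h, 551, 521 and 482 at 4 h, 860, 870 and 734 at 8 h, and 532, 328 and 413 at 24 h. The arms overlapped at 1 and 2 h, and at 4, 8 and 24 h every MLN4924 array lay below every DMSO array. FOS averaged 92.8 ± 11.5 in MLN4924 and 518 ± 34.6 in DMSO cells at 4 h (SD, n = 3 each). That is a log2 change of -2.14 (SE 0.20, adjusted p = 2.11e-07). The change was -2.18 at 8 h (SE 0.20, adjusted p = 3.99e-08) and -0.75 at 24 h (SE 0.20, adjusted p = 0.00575). The 24 h call rested on 1 array: without DMSO 24 h replicate 1 the change was -0.59 with an adjusted p of 0.0534.

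The FOS means of both arms were lower at 2 h than at 1 h (135 against 278 in MLN4924 cells, 151 against 313 in DMSO cells) and higher at 8 h than at 4 h. From 2 to 4 h and from 8 to 24 h the means moved in opposite directions, though for these steps FOS was called in DMSO cells only. Within the MLN4924 arm FOS was lower at 4 h than at 1 h by a log2 change of -1.26 (SE 0.20, adjusted p = 0.000362), a call that was lost when the fit held only those 6 arrays of the 2 groups (adjusted p = 0.0945). At 8 h the change against 1 h was -0.67 (SE 0.20, adjusted p = 0.0393), with overlapping arrays and with calls lost under 7 of the alternative settings, among them without MLN4924 1 h replicate 2 (-0.46, adjusted p = 0.235). At 24 h it was -0.17 (SE 0.20, adjusted p = 0.67). Within the DMSO arm FOS was higher at 8 h than at 1 h by 1.31 (SE 0.20, adjusted p = 0.00123), although the fit of those 2 groups alone gave an adjusted p of 0.137. It then was lower at 24 h than at 8 h by -0.92 (SE 0.20, adjusted p = 0.0039). DMSO FOS was also higher at 4 h than at 2 h, by 1.59 (SE 0.20, adjusted p = 0.000508, or 0.0552 in the fit of those 2 groups alone). From low to high, FOS ranked 4, 2, 8, 24 and 1 h in MLN4924 cells, where only the arrays of 4 and 2 h did not overlap among neighbours, and 2, 1, 24, 4 and 8 h in DMSO cells, where neighbours overlapped except 2 with 1 h and 4 with 8 h.

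FOSB is the closest relative of FOS and, like it, an immediate early gene. Its signal in MLN4924 arrays was 90.6, 178 and 57.7 at 1 h, 9.41, 47.6 and 23.9 at 2 h, 28.7, 15.1 and 11.7 at 4 h, 68.4, 120 and 46.6 at 8 h, and 97.5, 68.5 and 87.8 at 24 h. In DMSO arrays it was 109, 68.4 and 134 at 1 h, 77.4, 66.7 and 35.4 at 2 h, 201, 141 and 237 at 4 h, 306, 312 and 236 at 8 h, and 133, 70.6 and 81.1 at 24 h. MLN4924 arrays lay below DMSO arrays at 4 and 8 h without overlap, and the arms overlapped at the other 3 times. At 4 h, where FOSB was under the median signal in all 3 MLN4924 arrays, the change was -2.14 (SE 0.30, adjusted p = 6.58e-05), and it was -3.37 with 1 added to the signal in place of 32. At 8 h it was -1.57 (SE 0.30, adjusted p = 0.000822), and at 24 h -0.10 (SE 0.30, adjusted p = 0.887, 95% interval -0.71 to 0.51). Within the arms, in MLN4924 cells it was lower at 4 h than at 1 h by -1.40 (SE 0.30, adjusted p = 0.00694), and in DMSO cells it was lower at 24 h than at 8 h by -1.34 (SE 0.30, adjusted p = 0.0047). The first of these calls was lost without MLN4924 1 h replicate 2 (-1.07, adjusted p = 0.0701) and in the fit of the 2 groups alone (0.125), and the second with 1 added (0.0551). The DMSO change of 1.24 between 8 and 1 h passed narrowly (SE 0.30, adjusted p = 0.0498) and was lost under 11 of 17 alternatives, among them the replicate block (0.0574) and the omission of any of the 6 arrays. In MLN4924 cells FOSB ranked 4, 2, 8, 24 and 1 h from low to high, with every neighbouring pair overlapping. In DMSO cells the order was 2, 24, 1, 4 and 8 h, and only 1 and 4 h were apart.

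**Figure D2:**
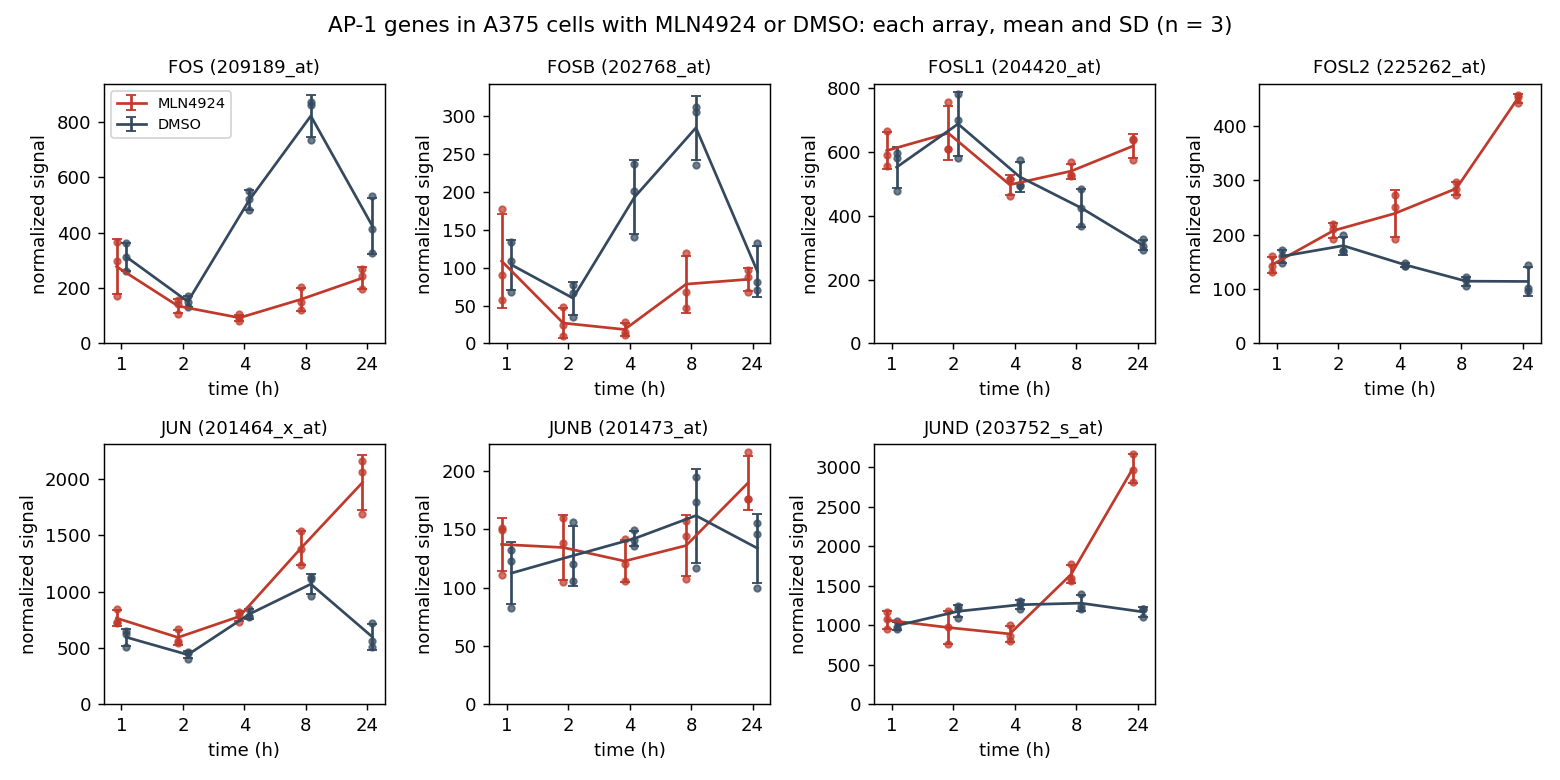
Normalized signal (vertical axis, linear, from 0) of the brightest probe set of each AP-1 gene at 1, 2, 4, 8 and 24 h (horizontal axis, times evenly spaced); points are the 3 arrays of a group, lines join group means and bars are 1 SD, MLN4924 in red and DMSO in dark blue. FOS is near 92.8 in MLN4924 cells and near 518 in DMSO cells at 4 h, whereas JUND reaches 2980 in MLN4924 cells and 1170 in DMSO cells at 24 h.

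FOSL1 encodes FRA1, a FOS protein without the transactivation domain of FOS. In MLN4924 arrays it read 590, 665 and 554 at 1 h, 609, 755 and 609 at 2 h, 515, 513 and 461 at 4 h, 526, 566 and 525 at 8 h, and 640, 574 and 637 at 24 h. In DMSO arrays it read 595, 477 and 581 at 1 h, 780, 700 and 579 at 2 h, 497, 492 and 575 at 4 h, 483, 366 and 423 at 8 h, and 304, 326 and 293 at 24 h. MLN4924 arrays were above DMSO arrays without overlap at 8 and 24 h, and overlapped them earlier. The difference was 0.33 at 8 h (SE 0.11, adjusted p = 0.0603) and 0.93 at 24 h (SE 0.11, adjusted p = 3.67e-07). The 8 h value passed under other settings, as with median centring of the arrays (0.47, adjusted p = 0.00726). It was the DMSO arm that moved: FOSL1 was lower at 24 h than at 1 h by -0.77 in DMSO cells (SE 0.11, adjusted p = 2.61e-05) and differed by 0.03 in MLN4924 cells, where no time was called against 1 h and the group means spanned 0.38 log2 units. In DMSO cells it ranked 24, 8, 4, 1 and 2 h from low to high, with arrays apart up to the step from 8 to 4 h. In MLN4924 cells the order was 4, 8, 1, 24 and 2 h, and only 4 and 8 h were apart.

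FOSL2 encodes FRA2, which like FRA1 lacks the transactivation domain of FOS. On its brightest probe set (225262_at) the MLN4924 signal was 142, 161 and 131 at 1 h, 219, 193 and 211 at 2 h, 252, 192 and 274 at 4 h, 298, 284 and 274 at 8 h, and 454, 442 and 458 at 24 h. The DMSO signal was 172, 148 and 161 at 1 h, 199, 170 and 171 at 2 h, 143, 149 and 143 at 4 h, 122, 116 and 106 at 8 h, and 144, 96.5 and 102 at 24 h. MLN4924 arrays lay above DMSO arrays from 4 h on, and the arms overlapped at 1 and 2 h. The change was 0.61 at 4 h (SE 0.11, adjusted p = 0.00133), 1.11 at 8 h (SE 0.11, adjusted p = 7.85e-08) and 1.74 at 24 h (adjusted p = 4.22e-12). Only the 4 h call was lost under an alternative, the fit of the 2 groups compared alone (adjusted p = 0.109). In MLN4924 cells its mean was higher at each later time, ranking 1, 2, 4, 8 and 24 h, and only the arrays of 2 and 4 h overlapped among neighbours. Against 1 h it was called at 4 h (0.61, adjusted p = 0.00108, or 0.125 in the fit of the 2 groups alone), at 8 h (0.85, adjusted p = 5.39e-06) and at 24 h (1.46, adjusted p = 1.55e-10). At 2 h the change was 0.44 (SE 0.11, adjusted p = 0.0719). In DMSO cells it was lower at 24 h than at 1 h by -0.41 (SE 0.11, adjusted p = 0.0113), a call lost without DMSO 24 h replicate 2 (-0.32, adjusted p = 0.0862), without DMSO 24 h replicate 3 (0.0667), without DMSO 1 h replicate 1 (0.0621) and in the fit of the 2 groups alone (0.128). DMSO levels ranked 24, 8, 4, 1 and 2 h, and only 8 and 4 h were apart.

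A second FOSL2 probe set, 228188_at, was near background in DMSO cells and moved further. Its MLN4924 signal was 112, 115 and 90.5 at 8 h and 237, 269 and 268 at 24 h, against DMSO signals of 6.97, 2.77 and 23.3 at 8 h and 2.6, 5.5 and 26.8 at 24 h. The change was 1.70 at 8 h (SE 0.24, adjusted p = 2.29e-05) and 2.77 at 24 h (SE 0.24, adjusted p = 1.82e-09). With 1 added instead of 32 these became 3.56 and 4.9, so their size depends on the added constant. Within the MLN4924 arm this probe set was higher than at 1 h by 0.99 at 4 h (adjusted p = 0.0197), 1.26 at 8 h (0.000961) and 2.33 at 24 h (4.69e-08). With 1 added the first became 1.76 with an adjusted p of 0.275 and the second 2.11 with 0.0806. The 4 h value was also lost without MLN4924 1 h replicate 1 (0.77, adjusted p = 0.132), without MLN4924 4 h replicate 1 (0.0541) or 3 (0.0913) and in the fit of those groups alone (0.0981). At 24 h 218880_at gave 79.9, 57.4 and 61.2 in MLN4924 arrays against 19.8, 14.6 and 12.9 in DMSO arrays, and 218881_s_at gave 30.5, 52.6 and 50.9 in MLN4924 arrays against 6.42, 22.9 and 6.84 in DMSO arrays. On both probe sets the groups were apart. These changes were 1.04 (SE 0.13, adjusted p = 1.17e-06) and 0.81 (SE 0.22, adjusted p = 0.00835), or 2.01 and 1.99 with 1 added. The last, 205409_at, was under the median signal on 18 of 30 arrays and was not called (0.27 at 24 h, SE 0.21, adjusted p = 0.421).

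JUN is the main partner of the FOS proteins and drives its own promoter in many cells. On the brightest of its 4 probe sets (201464_x_at) the MLN4924 signal was 731, 843 and 721 at 1 h, 563, 669 and 548 at 2 h, 816, 731 and 794 at 4 h, 1240, 1540 and 1380 at 8 h, and 2160, 1690 and 2060 at 24 h. The DMSO signal was 652, 509 and 624 at 1 h, 460, 454 and 406 at 2 h, 848, 780 and 773 at 4 h, 1110, 1130 and 962 at 8 h, and 726, 559 and 509 at 24 h. MLN4924 arrays lay above DMSO arrays at 1, 2, 8 and 24 h and overlapped them at 4 h. The difference was 1.68 at 24 h (SE 0.12, adjusted p = 7.52e-11), and 0.35 at 1 h (SE 0.12, adjusted p = 0.802), 0.40 at 2 h (SE 0.12, adjusted p = 0.202), -0.04 at 4 h and 0.37 at 8 h (SE 0.12, adjusted p = 0.0549). The 8 h value passed under median centring (0.56, adjusted p = 0.00377) and under 5 further alternatives that kept every array.

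The other 3 JUN probe sets were also called at 24 h. There 201466_s_at read 668, 714 and 615 in MLN4924 arrays against 178, 146 and 155 in DMSO arrays (1.86, SE 0.18, adjusted p = 1.14e-08). For 213281_at the values were 376, 339 and 279 in MLN4924 arrays against 132, 75 and 82.6 in DMSO arrays (1.52, SE 0.18, adjusted p = 4.86e-07), and for 201465_s_at 289, 261 and 376 in MLN4924 arrays against 93.3, 82.3 and 81.3 in DMSO arrays (1.52, SE 0.20, adjusted p = 1.34e-06). On all 4 probe sets the groups were apart at 24 h, and the 4 calls held under every alternative tried. At 8 h 1 of the 4 was called: 201466_s_at had 547, 662 and 535 in MLN4924 arrays and 388, 371 and 338 in DMSO arrays (0.62, SE 0.18, adjusted p = 0.026). That call was lost with 1 added (adjusted p = 0.07), with array brightness as a covariate (0.46, adjusted p = 0.353), and without DMSO 8 h replicate 2 (0.0588) or 3 (0.0936) or replicate 2 of the MLN4924 8 h arrays (0.126). The same probe set had 230, 165 and 168 in MLN4924 arrays and 117, 109 and 67.7 in DMSO arrays at 2 h (0.77, SE 0.18, adjusted p = 0.0696), and the value passed with the trended variance (0.0396) or with dim probe sets left out (0.0346). Probe sets with the suffix _x_at or _s_at can bind more than 1 transcript, and 213281_at has neither suffix.

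JUN was higher at 8 h than at 1 h in both arms, and the arms parted afterwards. Against 1 h, 201464_x_at was higher at 8 h by 0.83 in MLN4924 cells (SE 0.12, adjusted p = 3.88e-05) and by 0.81 in DMSO cells (SE 0.12, adjusted p = 0.00106, or 0.25 in the fit of the 2 groups alone). On 201466_s_at the 8 h values were 1.12 (adjusted p = 0.000124) in MLN4924 and 1.18 (adjusted p = 0.00122, or 0.234 in that smaller fit) in DMSO cells, and on 213281_at 0.74 in MLN4924 (adjusted p = 0.0113) and 0.85 in DMSO cells (adjusted p = 0.0277). The MLN4924 call of 213281_at was lost without MLN4924 1 h replicate 3 (0.62, adjusted p = 0.0799), and its DMSO call under 7 alternatives, from 0.0657 with array brightness as a covariate to 0.233 in the fit of the 2 groups alone. The remaining probe set, 201465_s_at, was called at 8 h in MLN4924 cells (0.74, adjusted p = 0.0177), a call lost under 5 alternatives, among them without MLN4924 8 h replicate 2 (0.62, adjusted p = 0.106). Between 8 and 24 h the means of every JUN probe set rose further in MLN4924 cells and fell in DMSO cells. In MLN4924 cells that step was not called on 201466_s_at or 213281_at. On 201465_s_at it passed narrowly (0.57, adjusted p = 0.0495) and was lost under 9 of 16 alternatives. In MLN4924 cells 201464_x_at was higher at 24 h than at 8 h by 0.49 (SE 0.12, adjusted p = 0.0044, or 0.0523 in the fit of the 2 groups alone), and in DMSO cells it was lower by -0.81 (SE 0.12, adjusted p = 7.92e-05). The order from low to high was 2, 1, 4, 8 and 24 h in MLN4924 cells, where only 1 and 4 h overlapped, and 2, 24, 1, 4 and 8 h in DMSO cells, where only 24 and 1 h overlapped.

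JUNB is an immediate early gene that can act in place of JUN or restrain it, and it was the 1 gene of the 7 with no call in any comparison. It read 149, 111 and 151 in MLN4924 arrays at 1 h, 138, 105 and 160 at 2 h, 106, 142 and 120 at 4 h, 157, 144 and 107 at 8 h, and 176, 176 and 216 at 24 h. In DMSO arrays it read 132, 82.1 and 123 at 1 h, 156, 120 and 106 at 2 h, 136, 149 and 141 at 4 h, 195, 173 and 117 at 8 h, and 155, 100 and 146 at 24 h. The arms overlapped at the first 4 times and were apart at 24 h. The 24 h difference was 0.43 (SE 0.18, 95% interval 0.06 to 0.79, adjusted p = 0.0864), and it passed with dim probe sets left out of the test (adjusted p = 0.0474). At the other times the 95% intervals were -0.13 to 0.60 at 1 h, -0.30 to 0.43 at 2 h, -0.54 to 0.19 at 4 h and -0.56 to 0.17 at 8 h, so these data leave room for changes of that size. No JUNB change within an arm was called. Group means spanned 0.52 log2 units with MLN4924 and 0.42 with DMSO, and the 1 pair of neighbouring ranks apart was 1 and 24 h in MLN4924 cells.

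JUND, the JUN protein best known from resting cells, changed sign over time. On 203752_s_at the MLN4924 signal was 949, 1170 and 1080 at 1 h, 977, 1180 and 757 at 2 h, 998, 868 and 806 at 4 h, 1780, 1600 and 1560 at 8 h, and 3170, 2810 and 2970 at 24 h. The DMSO signal was 1050, 981 and 955 at 1 h, 1240, 1200 and 1090 at 2 h, 1270, 1200 and 1310 at 4 h, 1390, 1200 and 1250 at 8 h, and 1200, 1100 and 1210 at 24 h. MLN4924 arrays overlapped DMSO arrays at 1 and 2 h, lay below them at 4 h, and lay above them at 8 and 24 h. The change was -0.49 at 4 h (SE 0.11, adjusted p = 0.0174), 0.36 at 8 h (SE 0.11, adjusted p = 0.0433) and 1.32 at 24 h (SE 0.11, adjusted p = 1.38e-09).

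The calls of JUND at 4 and 8 h were sensitive to the processing and that at 24 h was not. The 4 h call was lost with median centring (-0.39, adjusted p = 0.066), array brightness as a covariate (0.0959), the fit of the 2 groups alone (0.101), or the omission of DMSO 4 h replicate 1 (0.0702) or 3 (0.0868), or of MLN4924 4 h replicate 2 (0.0721) or 3 (0.111). The 8 h call was lost with 1 added (0.0777), with adjustment over all 5 times together (0.0561), in the fit of the 2 groups alone (0.0897), and without DMSO 8 h replicate 2 (0.148) or 3 (0.114), or without replicate 1 (0.165), 2 (0.0777) or 3 (0.0615) of the MLN4924 8 h arrays, while median centring gave 0.56 (adjusted p = 0.000957). Within the MLN4924 arm JUND was higher than at 1 h by 0.62 at 8 h (SE 0.11, adjusted p = 0.000595) and by 1.46 at 24 h (SE 0.11, adjusted p = 3.68e-10). In DMSO cells no time was called, and the means spanned 0.35 log2 units. MLN4924 levels ranked 4, 2, 1, 8 and 24 h, with 8 and 24 h apart from each other and from the rest. DMSO levels ranked 1, 24, 2, 4 and 8 h, and only 1 and 24 h were apart. JUND rests on an _s_at and 2 dim _x_at probe sets. At 24 h 203751_x_at read 113, 80.9 and 81.8 in MLN4924 arrays against 18.9, 14 and 30.3 in DMSO arrays (1.23, SE 0.16, adjusted p = 1.73e-06, or 2.13 with 1 added). The values of 214326_x_at were 132, 85.3 and 86.9 in MLN4924 arrays against 32.9, 8.88 and 32.2 in DMSO arrays (1.25, SE 0.21, adjusted p = 4.7e-05, or 2.17 with 1 added). The last, 229117_s_at, was not called at any time (0.10 at 24 h, SE 0.18, adjusted p = 0.793).

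Followed on its own, each arm had its own timetable. In MLN4924 cells 0 of 17 member probe sets were called at 2 h against 1 h (0.436% of all probe sets, 5 members at an unadjusted p under 0.05), 4 at 4 h (2.95%), 8 at 8 h (8.03%) and 10 at 24 h (21.4%), where all 10 were higher and belonged to FOSL2, JUN and JUND. In DMSO cells 0 were called at 2 h (0.211%, 7 members at an unadjusted p under 0.05) and 0 at 4 h (0.174%, 8 members). At 8 h 5 were called (0.703%) and at 24 h 2 (11.9%). The percentages are shares called at the adjusted threshold. At an unadjusted p under 0.05, 4393 of all 54613 probe sets passed in MLN4924 cells at 2 h. In DMSO cells 5336 passed at 2 h and 3621 at 4 h. The 5 DMSO calls at 8 h, for FOS, FOSB and JUN, were all higher than at 1 h, and the fit of those 2 groups alone called 0 of them. The 2 at 24 h, FOSL1 and FOSL2, were lower. The 4 comparisons of an arm share its 1 h arrays.

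The steps between neighbouring times, comparisons added after the data were seen, placed these changes. In MLN4924 cells 0 members were called from 2 to 4 h (0.742% of all probe sets, 4 members at an unadjusted p under 0.05), 4 from 4 to 8 h (2.44%) and 8 from 8 to 24 h (16.6%). The 4 were JUN on 3 probe sets, with 201464_x_at at 0.80 (adjusted p = 0.000286, or 0.0547 in the fit of the 2 groups alone), and JUND (0.87, adjusted p = 4.81e-05). The 8 were 3 probe sets each of FOSL2 and JUND and 2 of JUN, all higher at 24 h than at 8 h, with JUND 203752_s_at at 0.85 (adjusted p = 4.15e-06) and FOSL2 225262_at at 0.61 (adjusted p = 0.000155). In DMSO cells 3 members were called from 2 to 4 h (0.0879%), FOS and 2 JUN probe sets, all higher at 4 h though the fit of those 2 groups alone called 0 of the 3, and 0 from 4 to 8 h (0.0439%, 7 members at an unadjusted p under 0.05). From 8 to 24 h 7 were called (7.49%), all lower at 24 h: FOS, FOSB, FOSL1 and 4 of JUN. FOSL1 was at -0.42 there (adjusted p = 0.0196), a call lost under 7 alternatives, among them without DMSO 8 h replicate 1 (-0.33, adjusted p = 0.133). JUN 201466_s_at was at -1.05 (adjusted p = 0.000374). Of the 22 calls in these steps, 8 held under every alternative. At an unadjusted p under 0.05, 4933 of all 54613 probe sets passed from 2 to 4 h in MLN4924 cells. From 4 to 8 h in DMSO cells 4256 passed.

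**Figure D3:**
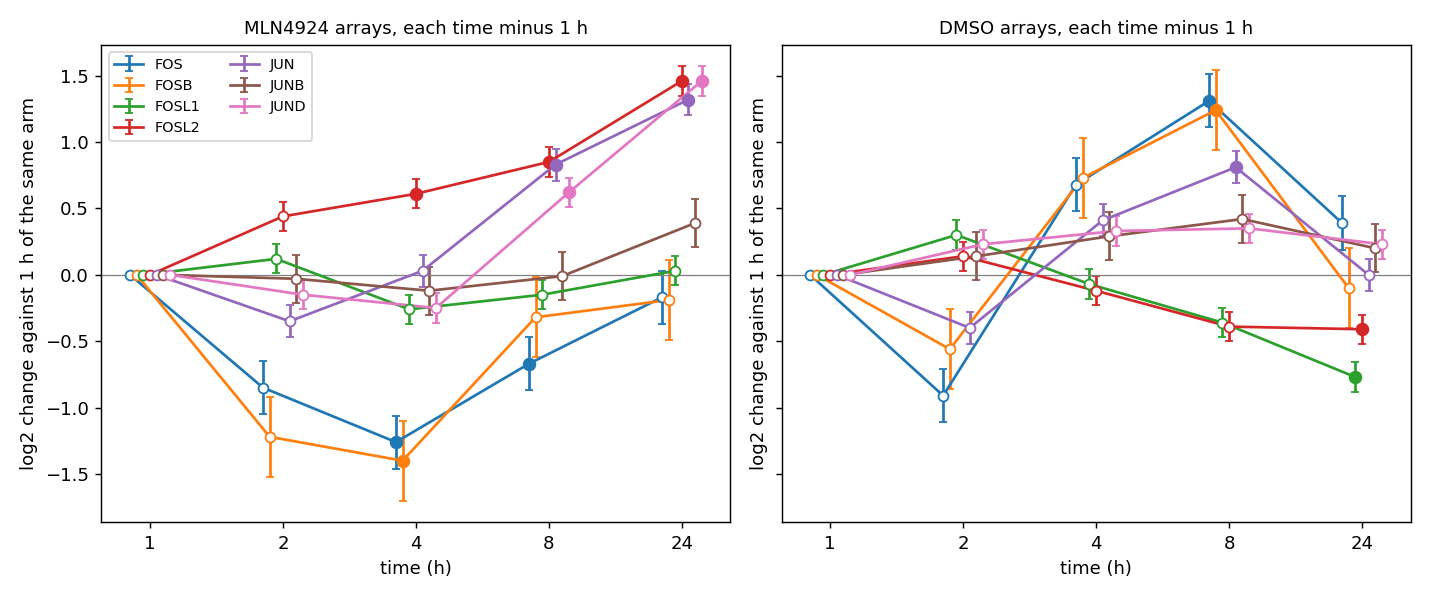
Log2 change of the brightest probe set of each AP-1 gene against 1 h of the same arm (vertical axis), MLN4924 arrays on the left and DMSO arrays on the right, by time in hours (horizontal axis, evenly spaced); bars are 1 SE and filled points have an adjusted p under 0.05. FOS is -1.26 at 4 h in the MLN4924 arm and 1.31 at 8 h in the DMSO arm, and FOSL2, JUN and JUND reach 1.46, 1.32 and 1.46 at 24 h with MLN4924.

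Whether the drug effect itself differed between neighbouring times was tested as an interaction. From 1 to 2 h 0 of 17 members differed (0.0586% of all probe sets, 2 members at an unadjusted p under 0.05). At that unadjusted threshold 3967 of all 54613 probe sets passed. From 2 to 4 h FOS differed (0.223%), its MLN4924 minus DMSO change being lower by -2.0 at 4 h than at 2 h (SE 0.28, adjusted p = 0.000964). From 4 to 8 h JUND differed (0.696%), by 0.85 (SE 0.16, adjusted p = 0.00867). From 8 to 24 h 13 members differed (12.4%), all toward a higher MLN4924 minus DMSO change at 24 h. Among them were FOS (1.42, SE 0.28, adjusted p = 0.00091), JUN 201464_x_at (1.31, adjusted p = 5.59e-06) and JUND 203752_s_at (0.97, adjusted p = 0.000113). JUNB had 0.62 there (SE 0.25, adjusted p = 0.121).

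Likeness of course was described by Pearson's r over the 10 group means, among 1726 genes whose means spanned at least 1 log2 unit. These means share arrays and normalization, so r is given with no test. For FOS the most similar gene was FOSB (r = 0.945), followed by UBBP1 (0.826), a ubiquitin pseudogene whose probe set may also bind its parent transcript, and ARRDC3 (0.818). Among the JUN side, JUND was most like TRIP10 (0.952), GDF15 (0.947) and LEAP2 (0.943), while JUN was at 0.899 with LIF-AS2, RRAS2 and POLR3F alike. FOSL2 was most like ANKRD1 (0.988), RRP1B (0.983) and TSC22D2 (0.976), and the same 3 genes led with 1 added to the signal, although Spearman's rho named 3 others. FOSL1 was most like CDC25A (0.894), SLC7A5 (0.886) and ZNF451 (0.873). For JUNB, whose means spanned 0.63 log2 units, the leading genes were EZH1 (0.887), DUSP1 (0.883) and RGS3 (0.864). FOS and FOSB also led each other's list by Spearman's rho (0.964) and with 1 added (0.927). The names for the other genes depend on the measure. For FOSL1 and JUNB, neither Spearman's rho nor 1 added named any of the 3 genes above. For JUND, Spearman's rho kept TRIP10 and 1 added kept none, and for JUN they kept RRAS2 and LIF-AS2, 1 each.

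Proteins that pair with FOS or JUN were led by ATF3, a stress-induced partner of JUN. Of 18 measured partner genes, 1 was called at 2 h (against 0.455% of all 19775 genes, and likewise below), 3 at 4 h (2.92%), 7 at 8 h (6 higher, 1 lower, 13.6% of all genes) and 11 at 24 h (8 higher, 3 lower, 32.5% of all genes), and the list's median at 24 h was 0.22, against 0.003 over all genes. ATF3 averaged 151 in MLN4924 and 94.2 in DMSO cells at 2 h (0.54, SE 0.11, adjusted p = 0.0246), 705 in MLN4924 and 97.3 in DMSO cells at 8 h (2.51, SE 0.11, adjusted p = 1.33e-13), and 2200 in MLN4924 and 39.2 in DMSO cells at 24 h (4.98, SE 0.11, adjusted p = 2.83e-20). MAFF, a small MAF protein that lacks a transactivation domain, rose by 1.98 at 24 h (adjusted p = 8.68e-18). DDIT3, a stress-response protein that can pair with other zipper proteins, rose by 1.68 (adjusted p = 7.74e-08). JDP2, which binds JUN and represses AP-1 sites, rose by 0.75 at 4 h (adjusted p = 0.00163) and 1.27 at 8 h (adjusted p = 4.06e-07). MAF fell by 1.38 at 24 h (adjusted p = 1.44e-11).

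Of 25 measured kinases and ternary complex factors upstream of FOS and JUN, 0 were called at 1, 2 and 4 h, 3 at 8 h (2 higher, 1 lower, 13.6% of all genes) and 9 at 24 h (5 higher, 4 lower, 32.5% of all genes), with a median of 0 at 24 h. The counts at 8 and 24 h were near those shares. STAT3, which acts on the FOS promoter, was lower at 8 h (-0.72, SE 0.15, adjusted p = 0.00169). At 24 h SRF, the serum response factor that binds the CArG box, was higher (0.92, SE 0.18, adjusted p = 0.00031), as was its partner ELK4 (0.51, adjusted p = 8.47e-06). MAP2K6, which activates p38, was lower (-1.72, adjusted p = 4.89e-10), as was RPS6KA3, an ERK-activated kinase (-0.94, adjusted p = 1.36e-09).

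Genes of, or linked to, the ubiquitin ligases that act on JUN, and of AU-rich mRNA decay, which clears FOS and JUN transcripts, were mixed. The first list, of 15 genes, also held scaffolds of the COP1 ligase, the deubiquitinase USP28 and the COP9 signalosome subunit COPS5. Of these 15, 1 was called at 2 h (0.455% of all genes) and 1 at 4 h (2.92%). At 8 h 6 were called (2 higher, 4 lower, 13.6% of all genes) and at 24 h 7 (3 higher, 4 lower, median -0.11, 32.5% of all genes). FBXW7, the substrate receptor for phosphorylated JUN, rose at 8 h (0.47, SE 0.08, adjusted p = 0.000373) and 24 h (0.92, SE 0.08, adjusted p = 4.16e-09). TRIB2, a pseudokinase scaffold of the COP1 ligase, was higher at 2 h (0.49, adjusted p = 0.00261) and lower at 8 h (-0.34, adjusted p = 0.00557) and 24 h (-2.91, SE 0.08, adjusted p = 9.39e-19). MAP3K1, a kinase with a ligase domain, rose at 4 h (0.81, adjusted p = 2.2e-05) and 8 h (0.74, adjusted p = 2.23e-05). Of 16 decay genes, 3 were called at 4 h (all lower), 7 at 8 h (4 higher, 3 lower) and 8 at 24 h (4 higher, 4 lower), against the same shares of all genes. The 3 lower at 4 h were TOB1 (-0.55), ZFP36L1 (-0.48, adjusted p = 0.00667) and ZFP36L2 (-0.26, adjusted p = 0.0484), whose products recruit the deadenylase to such mRNAs, and the same 3 were lower at 8 h.

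Other immediate early genes fell into both directions. Of 34 measured, 8 were called at 2 h (4 higher, 4 lower, 0.455% of all genes), 19 at 4 h (7 higher, 12 lower, 2.92% of all genes), 20 at 8 h (8 higher, 12 lower, 13.6% of all genes) and 26 at 24 h (14 higher, 12 lower, 32.5% of all genes), with medians of 0.03 at 1 and 2 h, -0.08 at 4 h, -0.07 at 8 h and 0.13 at 24 h. ATF3 and MAFF stand on this list as well as on that of the partners. EGR1, a zinc finger gene driven like FOS by serum response elements, averaged 161 in MLN4924 and 314 in DMSO cells at 2 h (-0.84, SE 0.15, adjusted p = 0.0077), and 72.4 in MLN4924 and 351 in DMSO cells at 4 h (-1.87, SE 0.15, adjusted p = 1.65e-08). EGR1 was called lower at 2 h, when FOS had a change of -0.14. Later EGR1 was higher, with 1310 in MLN4924 and 506 in DMSO cells at 8 h (1.32, SE 0.15, adjusted p = 1.17e-06), and 1450 in MLN4924 and 701 in DMSO cells at 24 h (1.03, SE 0.15, adjusted p = 7.52e-06). The nuclear receptor gene NR4A2 was lower at 4 h (-1.45), 8 h (-1.57, adjusted p = 1.49e-09) and 24 h (-1.99). SPRY2, a feedback inhibitor of ERK signalling, was lower from 2 h (-0.40) on, with -1.39 at 4 h, -1.61 at 8 h (adjusted p = 2.63e-13) and -2.03 at 24 h. MYC was higher from 2 h on, with 489 in MLN4924 and 204 in DMSO cells at 2 h (1.14, SE 0.09, adjusted p = 1.2e-07) and 801 in MLN4924 and 157 in DMSO cells at 24 h (2.14, SE 0.09, adjusted p = 6.52e-15). CCN2, a matricellular growth factor gene, was also higher at each time from 2 h (1.06) to 24 h (2.97, adjusted p = 1.07e-16).

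**Figure D4:**
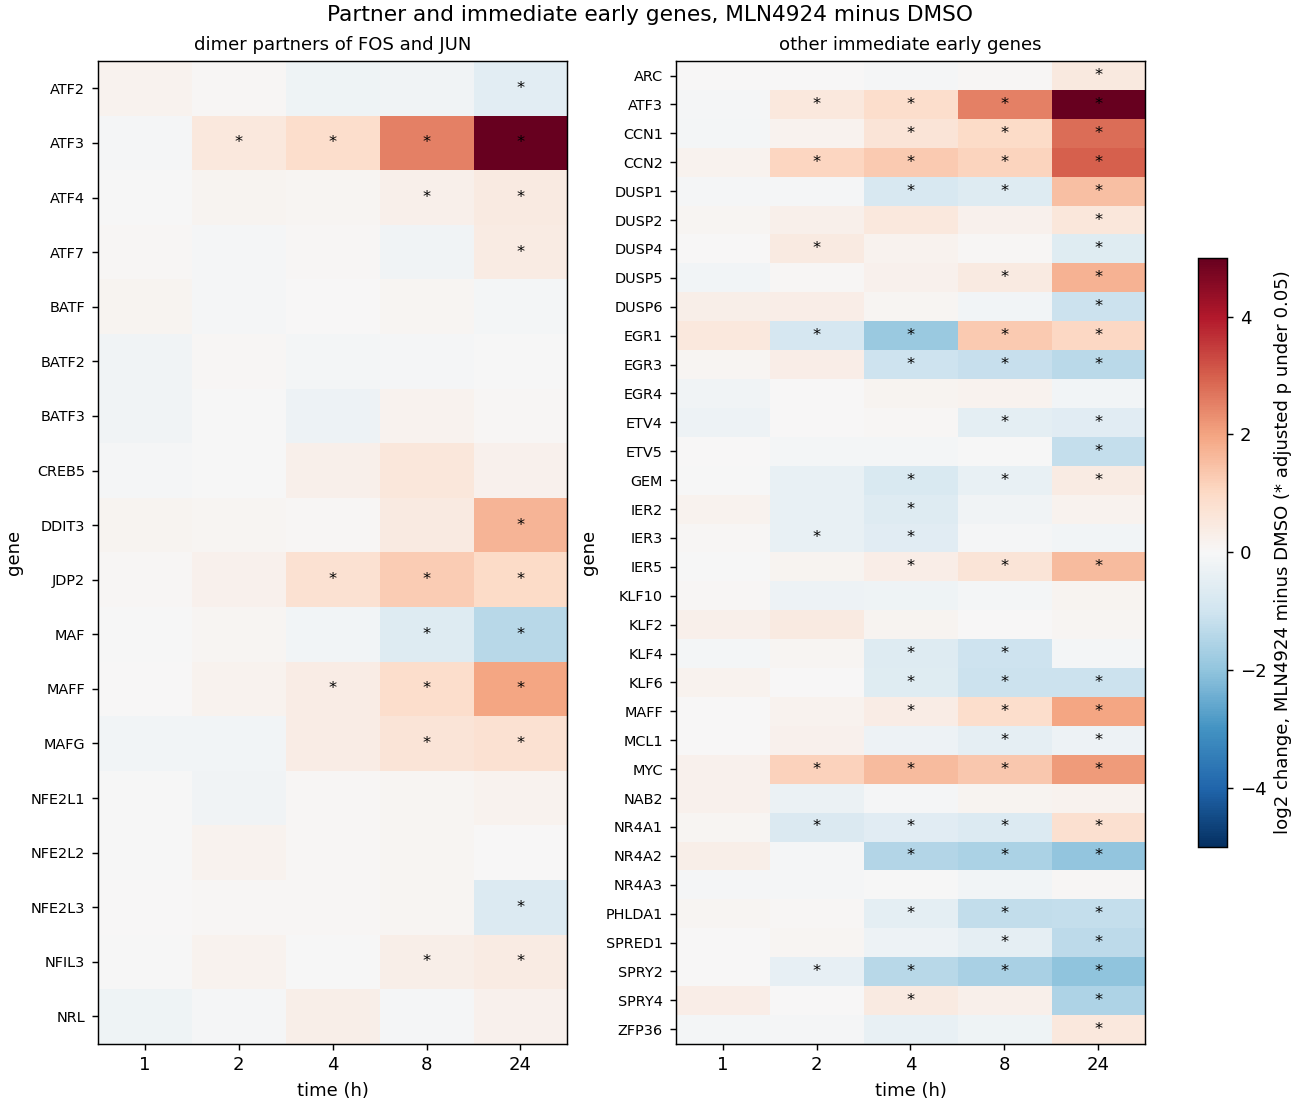
Log2 change, MLN4924 minus DMSO (colour), of the 18 measured dimer partners of FOS and JUN (left) and the 34 other immediate early genes (right), by time in hours (horizontal axis), each gene at its brightest probe set; an asterisk marks an adjusted p under 0.05. ATF3 reaches 4.98 at 24 h, MYC is higher from 2 h on and SPRY2 lower from 2 h on.

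Genes reported in the literature as AP-1 targets were also measured, many of which other factors control as well. Of 42, 1 was called at 1 h (0.0152% of all genes), 4 at 2 h (0.455%), 10 at 4 h (7 higher, 3 lower, 2.92% of all genes), 17 at 8 h (13 higher, 4 lower, 13.6% of all genes) and 30 at 24 h (20 higher, 10 lower, 32.5% of all genes). Their median at 24 h was 0.27, against 0.003 over all genes. HMOX1, the heme oxygenase gene that NRF2 also drives, was the call at 1 h (335 in MLN4924 and 217 in DMSO cells, 0.55, SE 0.10, adjusted p = 0.0476) and reached 3.97 at 4 h (SE 0.10, adjusted p = 2.8e-18). IL24, a cytokine gene, had 82.6 in MLN4924 and 180 in DMSO cells at 4 h (-0.88, SE 0.09, adjusted p = 1.67e-06), was also lower at 8 h (-1.23, adjusted p = 2.09e-09), and had 1510 in MLN4924 and 250 in DMSO cells at 24 h (2.45, SE 0.09, adjusted p = 8.52e-16). At 24 h HBEGF, an EGF receptor ligand, was higher (2.79, adjusted p = 2.34e-15), as was the cell cycle inhibitor CDKN1A (3.34, adjusted p = 1.72e-15). TNC, the matrix protein tenascin C, was lower (512 in MLN4924 and 3730 in DMSO cells, -2.79, SE 0.11, adjusted p = 1.54e-15).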

How the data were processed

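The 30 arrays were grouped by the sample titles. The deposited table holds the authors' intensity values, a linear signal for each of 54675 probe sets, made with Affymetrix Expression Console per the submitters' processing notes, with neither its version nor its algorithm given in the sources used here. Every array had a mean of 150.02 after trimming 2% at each end, so the deposited signals were already scaled. Here they were quantile-normalized and fitted as log2(signal + 32) with limma 3.58.1 in R 4.3.3, with a mean for each of the 10 groups (20 residual degrees of freedom), leaving out 62 control probe sets. Tests were two-sided, with Benjamini-Hochberg adjustment over all 54613 probe sets in each comparison. Array number, 3 per group, limits the precision. Symbols came from the platform annotation supplied with the table: 41097 probe sets had 1 symbol, 1801 several and 11777 none, and 0 of those with several named a member.

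Named genes were all member probe sets, the 3 genes most like each member, and up to 4 called genes per list and time by size of change. The members and the gene lists were chosen with earlier results of these data known, and the steps between neighbouring times within an arm were added after the data were seen. On simulated data for the 24 h comparison of MLN4924 with DMSO over 54613 probe sets, 27 of 74 changes of 0.5, 52 of 61 of 1 and 65 of 65 of 2 (log2) were recovered, and 6 of 150 calls were false. Only these changes were placed, in independent normal noise with equal means elsewhere, whereas 24.8% of probe sets were called in the data. The rates therefore need not hold for the real comparison. MLN4924 and DMSO arrays of the same time and replicate number did not deviate together (0 of 15 pairs over a correlation of 0.1), so they were not treated as pairs. Arrays sharing a replicate number across times were not compared in this way. Alternatives were the signals as deposited, median centring, 1 or 64 added, a trended robust variance, the replicate block, array brightness as a covariate, adjustment over a family of comparisons, the compared groups alone, dim probe sets left out, 1 probe set per gene, and each array left out.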

Additional observations from a re-analysis of the deposited data

Results flagged for a closer look

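For 15 values the MLN4924 minus DMSO change itself differed between neighbouring times in an interaction test (limma, Benjamini-Hochberg adjusted over all probe sets). Between 2 and 4 h the FOS change moved by -2.0 (SE 0.28, adjusted p = 0.000964). Between 4 and 8 h the JUND 203752_s_at change moved by 0.85 (SE 0.16, adjusted p = 0.00867).

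Between 8 and 24 h the changes of 13 probe sets moved upward. FOS moved by 1.42 (adjusted p = 0.00091) and FOSB by 1.47 (adjusted p = 0.0198), which for these genes brought the MLN4924 and DMSO levels closer together. FOSL1 moved by 0.60 (adjusted p = 0.0107), and FOSL2 by 0.63 on 225262_at, 1.07 on 228188_at and 0.63 on 218880_at. JUN moved by 1.31 on 201464_x_at, 1.24 on 201466_s_at, 1.12 on 213281_at and 1.4 on 201465_s_at, and JUND by 0.97 on 203752_s_at, 1.3 on 203751_x_at and 1.38 on 214326_x_at.

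The calls of FOSB, FOSL2 228188_at, FOSL2 218880_at and JUND 214326_x_at in this last step were lost with 1 added to the signal in place of 32 (adjusted p of 0.107, 0.505, 0.132 and 0.0907). Adjustment over the interaction comparisons together also lost those of FOSB (0.0606), FOSL2 228188_at (0.107) and FOSL2 218880_at (0.0779). The fit of the compared groups alone lost that of FOSL2 218880_at (0.137). That of FOSB was also lost without MLN4924 8 h replicate 3 (1.25, adjusted p = 0.0689) or DMSO 24 h replicate 2 (1.33, adjusted p = 0.0579). That of FOSL2 218880_at was lost without any 1 of 6 arrays, among them DMSO 8 h replicate 1 (0.48, adjusted p = 0.0987), and that of FOSL2 228188_at without any 1 of 7 arrays, among them DMSO 8 h replicate 3 (0.87, adjusted p = 0.12).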

How the results depend on the processing

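Of 89 called member values, 52 kept direction and call under every alternative tried (18 of 23 for MLN4924 against DMSO, 15 of 29 within arms against 1 h, 11 of 15 interactions, 8 of 22 steps between neighbouring times), and 0 reversed. For MLN4924 against DMSO, adjustment over the 5 times together gave 1 member call at 1 h and 3 at 2 h. That adjustment pools the early p-values with those of 24 h, when 24.8% of probe sets were called, which eases the early threshold for every probe set. The trended variance and the removal of dim probe sets gave 1 each at 2 h, and the fit of the 2 groups alone gave 2 at 4 h. For the family adjustment, the trended variance, 1 added, the brightness covariate and the removal of dim probe sets, calls over all probe sets were not counted. Within MLN4924 cells against 1 h, the 2 h count was 2 with the trended variance, 1 with the replicate block, and 3 with the family adjustment or dim probe sets left out, the 4 h count was 0 in the fit of the 2 groups alone, and the 8 h count was 5 with 1 added. Within DMSO cells, the 2 h count was 1 with the trended variance or dim probe sets left out and 2 with the family adjustment, the 4 h count was 4 with the family adjustment and 1 with dim probe sets left out, the 8 h count was 3 with 1 added or the brightness covariate and 0 in the fit of the 2 groups alone, and the 24 h count was 1 in that fit.

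With 1 array left out, the counts ran from 0 to 1 for MLN4924 against DMSO at 2 h (1 without DMSO 2 h replicate 3), from 0 to 2 in MLN4924 cells at 2 h (2 without MLN4924 1 h replicate 3), from 0 to 1 in DMSO cells at 2 h, from 3 to 4 in DMSO cells at 8 h, and from 1 to 2 in DMSO cells at 24 h. For MLN4924 against DMSO at 8 h the range was 4 to 8, where the main fit called 6. In MLN4924 cells at 8 h against 1 h it was 6 to 7, where the main fit called 8. For the interaction from 8 to 24 h it was 10 to 13. The replicate block moved no other count of member calls by over 1.5 times. Counts over all probe sets fell in the fit of the 2 groups alone, which has fewer arrays: 387 in place of 1119 at 4 h and 2134 in place of 5321 at 8 h for MLN4924 against DMSO. Calls of FOS, FOSB, FOSL2 and JUN within arms were lost in it. Where a group lies under a signal of 36.5, the size of the change depends on the added constant. FOSL2 228188_at averaged 11.6 in DMSO and 258 in MLN4924 cells at 24 h, and its change there was 2.77 with 32 added and 4.9 with 1.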

Other observations

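Of 9 measured melanocyte lineage markers, 1 was called lower with MLN4924 than with DMSO at 4 h (2.92% of all genes called), 2 lower and 1 higher at 8 h (13.6%), and 4 lower at 24 h (32.5%). MITF, TYR, PMEL, MLANA and TYRP1 were called at no time. The summed signal of 9 measured lineage markers was 1350 to 1440 in MLN4924 and 2790 to 3100 in DMSO arrays at 24 h, and 1490 to 1540 in MLN4924 and 1860 to 2320 in DMSO arrays at 4 h. SOX10 was lower by a log2 change of -0.86 at 4 h, -1.63 at 8 h and -1.08 at 24 h (limma, all called), and S100B, a calcium-binding protein gene of this lineage, by -1.23 at 8 h and -3.49 at 24 h. At 24 h S100B averaged 61.4 in MLN4924 and 981 in DMSO cells and SOX10 396 in MLN4924 and 873 in DMSO cells, the largest differences behind the sums. PAX3 was higher at 8 h (0.28) and lower at 24 h (-0.21). In DMSO cells alone the sum was 1950 to 2110 at 1 h and 2790 to 3100 at 24 h. The relation of these markers to the AP-1 genes was not tested.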
